A study of Mus musculus with 12 samples.

Results

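Mt1, Mt2, Mtf1, Slc30a1 and Slc39a14 are 5 of the 22552 genes in a table of RNA-seq expression from mice lacking the lamin B receptor (Lbr) or lamin A/C (Lmna), and all 5 were found in it by symbol. They cover metal-binding proteins, a metal-sensing transcription factor, a zinc exporter and a zinc importer. The set was chosen from the values themselves, because Mt1 and Mt2 are higher in the muscle of both knockouts, so the muscle differences of the 5 genes are given as a description with no test. The series has 12 samples of total RNA from C57Bl/6 mice, and the table holds 7 columns, each with a single FPKM value per gene (fragments divided by transcript length and by library depth). In striated muscle the columns are Lbr knockout (2 samples), Lmna knockout (2 samples) and wild type (2 samples), and both knockouts share that wild-type column. In myoblasts, the proliferating precursors of muscle fibres, they are Lbr knockout (2 samples), Lmna knockout (2 samples) and a wild type from the litter of each knockout (1 sample each). Knockout and wild-type animals came from matings of heterozygous parents. The labels name neither the age of the animals nor the muscle sampled, the form of the deleted alleles or how the myoblasts were prepared.

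Metallothioneins are small cysteine-rich proteins that bind zinc and copper, and Mt1 and Mt2 are the forms found in most tissues. Free zinc in the cell is sensed by Mtf1, a zinc-finger transcription factor that binds metal response elements in the promoters of Mt1, Mt2 and Slc30a1. Glucocorticoids and inflammatory signals also induce the metallothioneins, which are among the genes known to increase in wasting muscle. Slc30a1 (ZnT1) exports zinc across the plasma membrane, and Slc39a14 (ZIP14) imports zinc, iron and manganese.

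The coding sequences of Mt1 and Mt2 are shown because their similarity bears on how fragments are assigned to either gene. They are from the GENCODE M21 transcripts of these genes, with capitals at the bases that differ between the genes.
Mt1: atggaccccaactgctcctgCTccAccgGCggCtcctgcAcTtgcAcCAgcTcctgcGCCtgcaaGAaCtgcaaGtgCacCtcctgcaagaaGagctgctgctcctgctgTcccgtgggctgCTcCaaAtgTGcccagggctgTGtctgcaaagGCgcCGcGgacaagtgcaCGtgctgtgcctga
Mt2: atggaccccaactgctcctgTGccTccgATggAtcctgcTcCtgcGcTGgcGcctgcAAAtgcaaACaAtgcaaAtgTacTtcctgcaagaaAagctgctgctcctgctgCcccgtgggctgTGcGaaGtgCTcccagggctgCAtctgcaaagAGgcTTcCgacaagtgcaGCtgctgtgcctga
Each holds 186 bases and 20 cysteine codons among 61 codons before the stop. The sequences are identical at 148 of the 186 bases, or 79.6%, and differ at 38. The longest run shared by the whole transcripts was 20 bases, so a longer fragment without errors matches a single one of these transcripts. The labels do not say how the authors treated fragments matching more than 1 gene.

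The 250 bases before the start of Mt1, Mt2 and Slc30a1 are shown because Mtf1 is known to act on these promoters. They are RefSeq windows of GRCm38.p6, all on the plus strand, at chr8:94178839-94179088 for Mt1, chr8:94172368-94172617 for Mt2 and chr1:191906531-191906780 for Slc30a1. Capitals mark matches to the core of the metal response element, searched as TGCACNC and TGCGCNC on both strands.
Mt1 promoter: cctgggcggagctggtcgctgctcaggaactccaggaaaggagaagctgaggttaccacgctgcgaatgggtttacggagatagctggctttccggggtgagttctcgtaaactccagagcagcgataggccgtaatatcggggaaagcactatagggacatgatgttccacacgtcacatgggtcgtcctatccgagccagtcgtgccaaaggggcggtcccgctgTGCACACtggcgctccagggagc
Mt2 promoter: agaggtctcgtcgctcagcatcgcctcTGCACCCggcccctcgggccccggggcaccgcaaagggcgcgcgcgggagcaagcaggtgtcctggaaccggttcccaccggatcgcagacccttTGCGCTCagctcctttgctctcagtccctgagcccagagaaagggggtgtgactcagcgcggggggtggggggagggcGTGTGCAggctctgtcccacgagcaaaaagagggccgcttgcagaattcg
Slc30a1 promoter: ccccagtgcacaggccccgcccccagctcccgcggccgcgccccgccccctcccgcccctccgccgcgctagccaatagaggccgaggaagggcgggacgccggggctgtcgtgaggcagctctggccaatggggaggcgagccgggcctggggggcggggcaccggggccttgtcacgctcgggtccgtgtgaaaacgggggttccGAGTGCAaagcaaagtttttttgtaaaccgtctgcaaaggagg
With the first 50 bases of the transcript included, the window of Mt1 held 3 matches, that of Mt2 held 4 and that of Slc30a1 held 2. Of these, 1 in Mt1, 3 in Mt2 and 1 in Slc30a1 lie before the start. The Mt1 match begins at -23, those of Mt2 at -223, -128 and -50, and that of Slc30a1 at -43, counted from the start. After the start, matches begin at 3 and 21 in Mt1, at 5 in Mt2 and at 31 in Slc30a1. The start is that of the RefSeq window. Other starts and bases further into the genes were not searched, so the counts before the start do not rank the promoters. The Mtf1 window held 0 matches. Among all 32851 windows of this length, 25.7% held at least 1 match, 7.11% at least 2, 1.97% at least 3 and 0.517% at least 4. A match describes the letters of the window and does not show binding.

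The labels were checked on the deleted genes. Lbr had 1.87 FPKM in Lbr-knockout muscle, against 11.8 FPKM in wild-type muscle, and 7.71 FPKM in Lbr-knockout myoblasts, against 16.1 FPKM in wild-type myoblasts of that litter. Lmna had 22.6 FPKM in Lmna-knockout muscle, against 59.5 FPKM in wild-type muscle, and 18.5 FPKM in Lmna-knockout myoblasts, against 147 FPKM in wild-type myoblasts of that litter. In the myoblast columns the satellite cell factor Pax7 was at 0.152 to 0.273 FPKM and the macrophage gene Lyz2 at 316 to 1131 FPKM, so these columns hold macrophage transcripts beside those of myoblasts. There, 10 fibroblast markers summed to 2681 to 3027 FPKM and 10 myoblast markers to 125 to 223 FPKM. Values of these columns are therefore those of the cultures and not of myoblasts alone. From 11315 to 12256 genes reached 1 FPKM in a column. The table gives no counts, and with a single column per group the spread between animals cannot be measured. Fewer cells of a type and less RNA per cell cannot be told apart in these bulk samples.

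Mt1 and Mt2 were higher in the muscle of both knockouts, and more so without Lmna than without Lbr. Mt1 had 82.7 FPKM in Lbr-knockout muscle and 227 FPKM in Lmna-knockout muscle, against 38.8 FPKM in wild-type muscle. Mt2 had 31.8 FPKM in Lbr-knockout muscle and 83.2 FPKM in Lmna-knockout muscle, against 13.4 FPKM in wild-type muscle. For both genes Lmna-knockout muscle was the highest of the 7 columns and Lbr-knockout muscle the second highest. In myoblasts Mt1 had 22.6 FPKM without Lbr and 28.7 FPKM without Lmna, against 19.6 and 24.5 FPKM in the wild types of the Lbr and Lmna litters. Mt2 had 20.9 FPKM in Lbr-knockout and 27.0 FPKM in Lmna-knockout myoblasts, against 21.1 and 20.6 FPKM in the wild types of the Lbr and Lmna litters. The myoblast columns lie close together, within a ratio of highest to lowest of 1.46 for Mt1 and 1.31 for Mt2, whereas the muscle columns span 5.87-fold for Mt1 and 6.23-fold for Mt2.

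**Figure D1:**
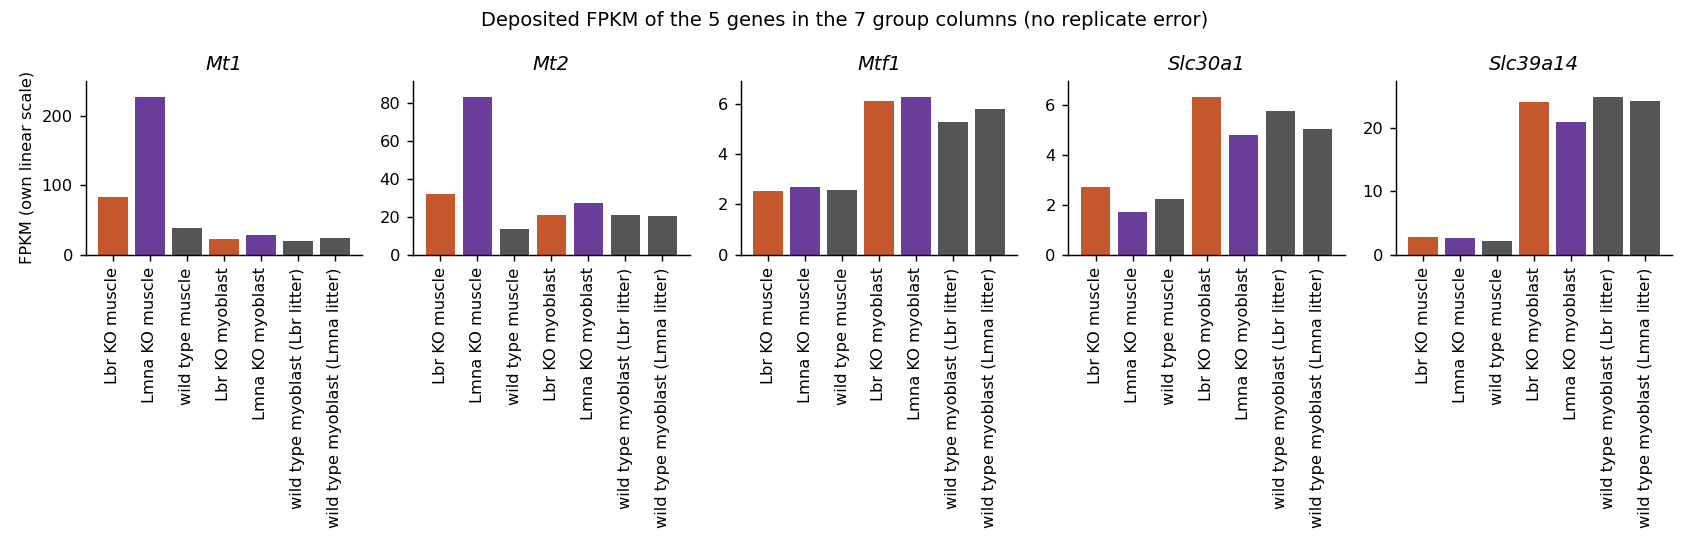
Deposited FPKM of Mt1, Mt2, Mtf1, Slc30a1 and Slc39a14 in the 7 columns, 1 bar per column, with an axis of its own for each gene and no error bars because each group has 1 column. Mt1 and Mt2 are highest in Lmna-knockout muscle (227 and 83.2 FPKM), while Mtf1, Slc30a1 and Slc39a14 are higher in each myoblast column than in each muscle column. The share of all genes with that order was not measured.

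Differences are given on the log2(FPKM + 1) scale, knockout minus wild type, and a gene is called higher or lower from 2-fold on that scale, a log2 value of 1. In Lbr-knockout muscle Mt1 differed by 1.07 and Mt2 by 1.19, and Mtf1, Slc30a1 and Slc39a14 stayed below 2-fold. These 2 of 5 genes stand beside 1.30% of the 12080 genes compared that were at least 2-fold higher and 0.265% that were at least 2-fold lower, but they were chosen for this difference. With the columns shifted to a common median, 125 genes were at least 2-fold higher and 47 lower, against 157 and 32 as deposited. By size of increase Mt1 ranked 131 and Mt2 ranked 101 among those genes, just inside 2-fold. In Lmna-knockout muscle Mt1 differed by 2.52 and Mt2 by 2.55, and 1.93% of 12068 genes were at least 2-fold higher and 0.762% at least 2-fold lower. Mt2 ranked 5 and Mt1 ranked 6 there. The common median gave 160 genes higher and 137 lower, against 233 and 92 as deposited. The median of all genes compared was 0.10 in Lbr-knockout and 0.13 in Lmna-knockout muscle, and both comparisons use the same wild-type column. At the common median Mt1 in Lbr-knockout muscle was at 0.96, below 2-fold.

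The muscle columns of the knockouts can also be set against each other, without the wild type. Lmna-knockout minus Lbr-knockout muscle gave 1.45 for Mt1 and 1.36 for Mt2, where 0.812% of 12069 genes were at least 2-fold higher. By size of increase Mt1 ranked 36 and Mt2 ranked 43. The same difference was 0.06 for Mtf1, -0.45 for Slc30a1 and -0.05 for Slc39a14. These columns also entered the choice of genes, so the order of the knockouts carries no test.

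Mt1 and Mt2 kept nearly the same proportion across the muscle columns. The ratio of Mt1 to Mt2 FPKM was 2.60 in Lbr-knockout, 2.73 in Lmna-knockout and 2.90 in wild-type muscle. In myoblasts it was 1.08 without Lbr and 1.06 without Lmna, against 0.928 and 1.19 in the wild types of the Lbr and Lmna litters. Muscle therefore carried the larger share of Mt1 with and without the knockouts. Together the pair summed to 115 FPKM in Lbr-knockout and 311 FPKM in Lmna-knockout muscle, against 52.1 FPKM in wild-type muscle. The metallothioneins of restricted expression did not follow. Mt3, known as the brain form, had 5.67 FPKM in Lbr-knockout and 4.11 FPKM in Lmna-knockout muscle, against 6.81 FPKM in wild-type muscle, differences of -0.23 and -0.61. Mt3 was listed at 0 in all myoblast columns, and Mt4, known from stratified epithelia, was listed at 0 in all 7 columns.

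The precision behind the pair is limited by depth, because both transcripts are short. From the FPKM steps of genes with a single transcript, Mt1 was estimated to rest on 143 fragments in Lbr-knockout and 392 fragments in Lmna-knockout muscle, against 88.1 fragments in wild-type muscle. Mt2 was estimated at 51.1 fragments in Lbr-knockout and 133 fragments in Lmna-knockout muscle, against 28.3 fragments in wild-type muscle. The wild-type estimate of Mt2 is the smallest for either gene in any column. These are estimates of depth, since the table gives FPKM and no counts. No such estimate was made for Mt3, whose muscle values of 4.11 to 6.81 FPKM are lower than those of Mt1 and Mt2.

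The metal sensor and the zinc transporters among the 5 genes differed little in muscle. Mtf1 had 2.52 FPKM in Lbr-knockout and 2.68 FPKM in Lmna-knockout muscle, against 2.56 FPKM in wild-type muscle, differences of -0.02 and 0.05, the second of which was -0.09 with columns shifted to a common median. The Mtf1 columns of muscle lie within a ratio of highest to lowest of 1.06. Slc30a1, the exporter whose promoter matches are printed above, had 2.71 FPKM in Lbr-knockout and 1.72 FPKM in Lmna-knockout muscle, against 2.22 FPKM in wild-type muscle. Its differences were 0.20 without Lbr and -0.24 without Lmna, so its highest muscle column was the Lbr knockout and its lowest the Lmna knockout, where Mt1 and Mt2 peaked. Slc39a14 had 2.82 FPKM in Lbr-knockout and 2.68 FPKM in Lmna-knockout muscle, against 2.14 FPKM in wild-type muscle, differences of 0.28 and 0.23. All 3 genes were below 2-fold in both knockouts. Slc30a1 was estimated at 28.3 to 48.2 and Slc39a14 at 41.5 to 43.7 fragments in the muscle columns.

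**Figure D2:**
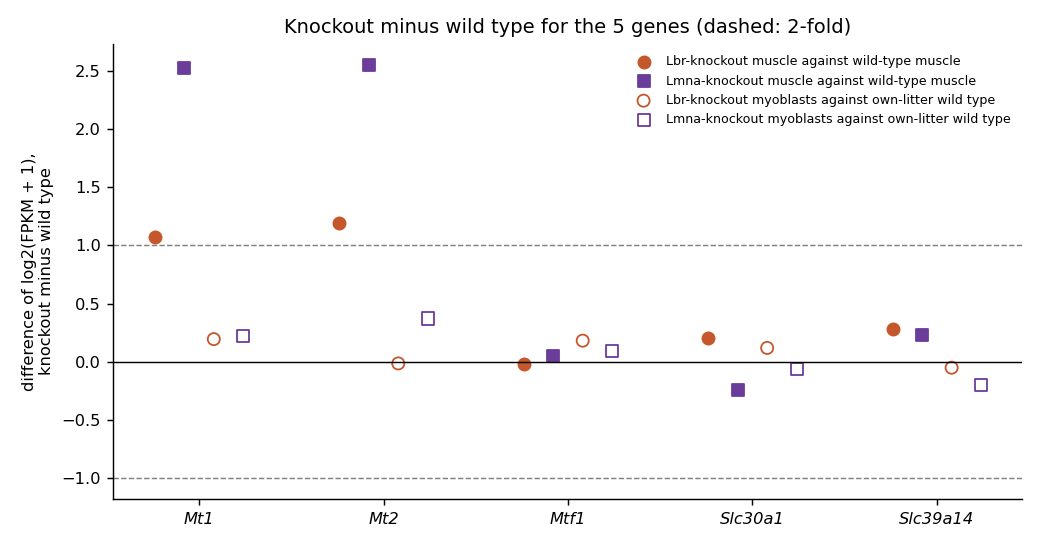
Difference of log2(FPKM + 1), knockout minus wild type, for the 5 genes (horizontal axis) in the muscle and myoblast comparisons, with dashed lines at 2-fold. Mt1 and Mt2 lie past the line in both muscle comparisons, at 1.07 and 1.19 without Lbr and at 2.52 and 2.55 without Lmna, and the other genes and both myoblast comparisons lie within it.

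The compared genes of the wider zinc transporter families were below 2-fold in both knockout muscles, as were most genes. Past 2-fold in either direction were 1.56% of all genes compared in Lbr-knockout and 2.69% in Lmna-knockout muscle. This does not set the families apart. Of 14 zinc importers of the Slc39a (ZIP) family, 9 could be compared, and their differences ran from -0.17 to 0.28 with a median of 0.17 in Lbr-knockout muscle and from -0.10 to 0.44 with a median of 0.13 in Lmna-knockout muscle. The largest in Lmna-knockout muscle was that of Slc39a11, with 2.14 FPKM in Lbr-knockout and 2.76 FPKM in Lmna-knockout muscle, against 1.78 FPKM in wild-type muscle. Slc39a10, a plasma membrane importer, differed by 0.24 in Lbr-knockout and 0.39 in Lmna-knockout muscle, with 4.24 FPKM in wild-type muscle. Slc39a7, which releases zinc from the endoplasmic reticulum, had 17.5 and 18.8 FPKM in Lbr-knockout and Lmna-knockout muscle, against 17.1 FPKM in wild-type muscle. The medians are close to those of all genes, 0.10 and 0.13.

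Of 10 exporters of the Slc30a (ZnT) family, 7 could be compared. Their differences ran from -0.33 to 0.27 in Lbr-knockout and from -0.37 to 0.23 in Lmna-knockout muscle, with medians of 0.11 and 0.09. The lowest in both was Slc30a6, which acts in the secretory pathway, with 2.05 FPKM in Lbr-knockout and 1.98 FPKM in Lmna-knockout muscle, against 2.84 FPKM in wild-type muscle. Its partner Slc30a5 had 7.14 FPKM in Lbr-knockout and 6.47 FPKM in Lmna-knockout muscle, against 6.00 FPKM in wild-type muscle. Slc30a9 was the most abundant exporter of muscle by FPKM, at 18.4 in Lbr-knockout and 18.7 in Lmna-knockout muscle, against 20.9 in wild-type muscle.

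**Figure D3:**
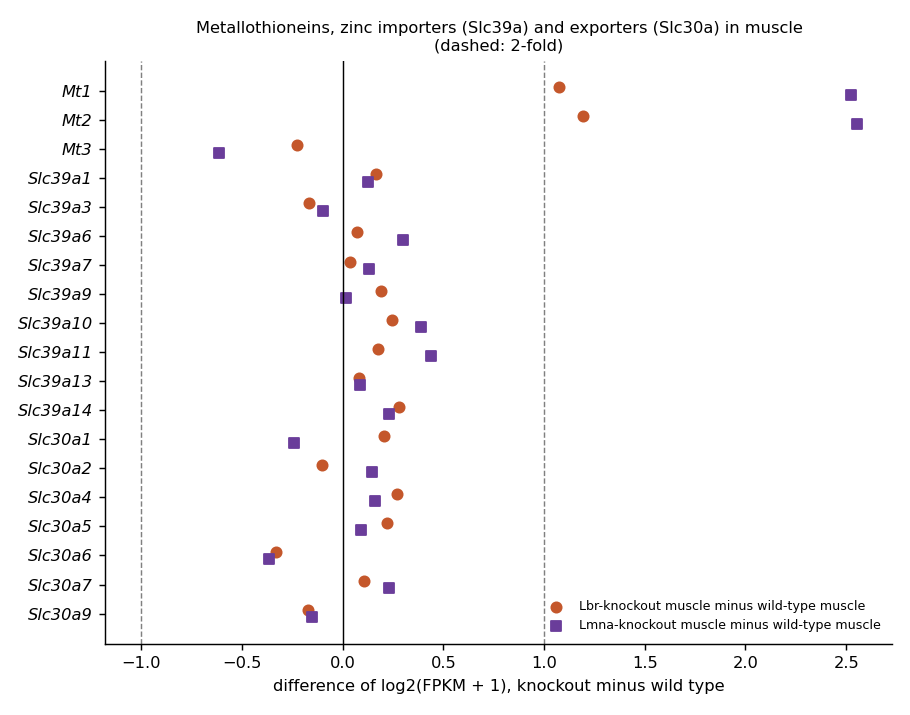
Difference of log2(FPKM + 1), knockout minus wild type (horizontal axis), for each metallothionein and zinc transporter gene that could be compared in muscle, with dashed lines at 2-fold. Mt1 and Mt2 stand apart to the right in both knockouts, and the 9 importers and 7 exporters lie between -0.37 and 0.44.

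The genes beside the metallothioneins on chromosome 8 were examined, since Mt4, Mt3, Mt2 and Mt1 lie next to one another and nuclear lamina proteins contact chromatin. None of the compared neighbours was at least 2-fold higher or lower in either knockout muscle. Of all genes compared, 1.56% in Lbr-knockout and 2.69% in Lmna-knockout muscle were past 2-fold in either direction. Being below 2-fold therefore does not set these neighbours apart. On the side of Mt4, Bbs2 differed by 0.10 without Lbr and by 0.34 without Lmna, Ogfod1 by 0.19 and -0.06, and Nudt21 by -0.08 and -0.18. On the side of Mt1, Nup93, a nuclear pore component, had 4.51 FPKM in Lbr-knockout and 5.10 FPKM in Lmna-knockout muscle, against 4.63 FPKM in wild-type muscle. Herpud1, an endoplasmic reticulum stress gene, differed by 0.20 without Lbr and 0.26 without Lmna. Mt4 and the kidney cotransporter Slc12a3 were listed at 0 in wild-type muscle and were not compared. Mt2 and Mt1, chosen for their difference, were past 2-fold, with Mt3 on one side and Nup93 on the other below it, as were most genes.

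**Figure D4:**
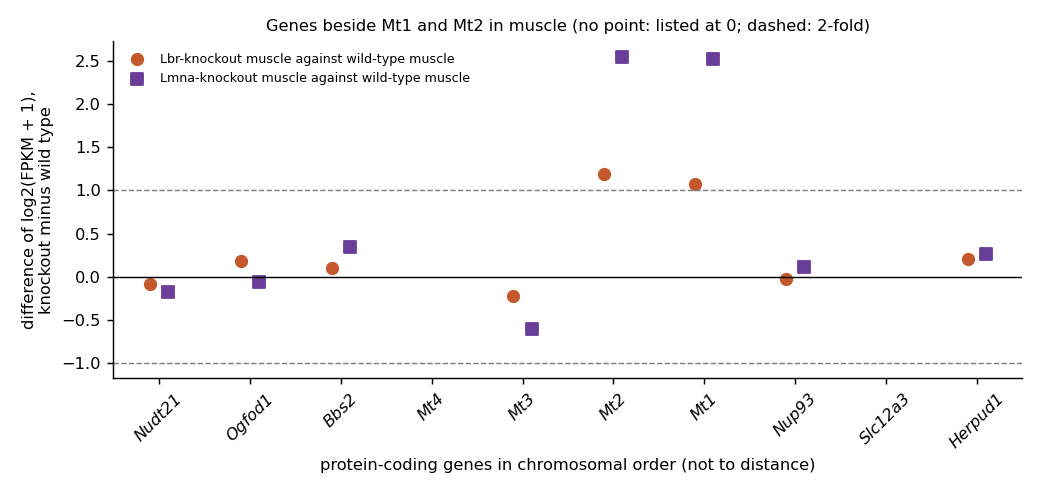
Difference of log2(FPKM + 1), knockout minus wild type, for genes in their order along chromosome 8 (horizontal axis, order only), in Lbr-knockout and Lmna-knockout muscle. Mt2 and Mt1 are past 2-fold in both, and the flanking Mt3 (-0.23 and -0.61) and Nup93 (-0.03 and 0.12) are not. Of all genes compared, 1.56% without Lbr and 2.69% without Lmna were past 2-fold in either direction.

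Other genes known to respond to signals that also induce metallothioneins were read in the same columns. The lists share some genes and were drawn up with earlier results of these data known. For each list, the share of all genes at least 2-fold higher was 1.30% in Lbr-knockout and 1.93% in Lmna-knockout muscle, with medians of 0.10 and 0.13. Of 15 glucocorticoid-induced genes compared, 0 were at least 2-fold higher in Lbr-knockout muscle (median 0.19) and 7 in Lmna-knockout muscle (median 0.86), with 0 at least 2-fold lower. Below wild type by less than 2-fold were 2 without Lbr (lowest -0.28) and 1 without Lmna (-0.53). Pdk4, a kinase that restrains pyruvate oxidation, had 178 FPKM in Lbr-knockout and 734 FPKM in Lmna-knockout muscle, against 171 FPKM in wild-type muscle. Klf15, a transcription factor, had 5.79 FPKM in Lbr-knockout and 15.3 FPKM in Lmna-knockout muscle, against 4.13 FPKM in wild-type muscle. Fkbp5, a co-chaperone of the glucocorticoid receptor, had 4.17 FPKM in Lbr-knockout and 8.46 FPKM in Lmna-knockout muscle, against 2.15 FPKM in wild-type muscle. These genes were named for having the largest differences of the list without Lmna. Fkbp5 and Klf15 had the order Lmna knockout, Lbr knockout, wild type from high to low, as Mt1 had. Pdk4 was nearly level between Lbr-knockout and wild-type muscle.

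Of 16 muscle atrophy genes other than the metallothioneins, 0 were at least 2-fold higher in Lbr-knockout muscle (median 0.24) and 4 in Lmna-knockout muscle (median 0.65), with 0 lower. These 4 were the ubiquitin ligase genes Fbxo32 (2.30) and Cblb (1.06), the cell cycle inhibitor Cdkn1a (2.12) and Sesn1 (1.15). Fbxo32 had 14.5 FPKM in Lbr-knockout and 50.1 FPKM in Lmna-knockout muscle, against 9.41 FPKM in wild-type muscle. Cdkn1a had 7.76 FPKM in Lbr-knockout and 22.1 FPKM in Lmna-knockout muscle, against 4.33 FPKM in wild-type muscle.

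Of 11 interleukin-6 and STAT3 response genes, Serpina3n (1.05) was higher and Timp1 (-1.64) lower in Lbr-knockout muscle, with a median of 0.30. In Lmna-knockout muscle Lcn2 (2.26), Serpina3n (1.31) and Il6ra (1.11) were higher, with a median of 0.74. The differences of Serpina3n and Il6ra rest on low wild-type muscle values, 0.516 and 0.414 FPKM. Lcn2, a secreted acute-phase protein, had 3.45 FPKM in Lbr-knockout and 9.70 FPKM in Lmna-knockout muscle, against 1.24 FPKM in wild-type muscle. Il6 itself was listed at 0 in all muscle columns.

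Targets of Mtf1 other than the metallothioneins and Slc30a1 did not reach 2-fold on the log2(FPKM + 1) scale. Among the 8 compared, the median was 0.11 in Lbr-knockout and 0.37 in Lmna-knockout muscle. Hspa1a, a heat shock chaperone, had 2.15 FPKM in Lbr-knockout and 6.04 FPKM in Lmna-knockout muscle, against 2.87 FPKM in wild-type muscle. Ndrg1 had 32.6 FPKM in Lbr-knockout and 34.4 FPKM in Lmna-knockout muscle, against 18.7 FPKM in wild-type muscle. Slc40a1, the iron exporter ferroportin, differed by -0.05 without Lbr and 0.84 without Lmna. None of the 12 NRF2 targets, 11 heat shock, 11 iron or 11 copper genes compared reached 2-fold on that scale in either muscle. Of 10 hypoxia genes, Egln3 (1.26 without Lmna) was the one past it. The added pseudocount lowers the ratios of genes with low FPKM, such as Hspa1a above. Sco2, a copper gene, had 3.82 FPKM in Lbr-knockout and 1.63 FPKM in wild-type muscle, a difference of 0.87. Hspa1b, a heat shock gene, had 5.35 FPKM in Lmna-knockout and 2.47 FPKM in wild-type muscle, also 0.87.

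**Figure D5:**
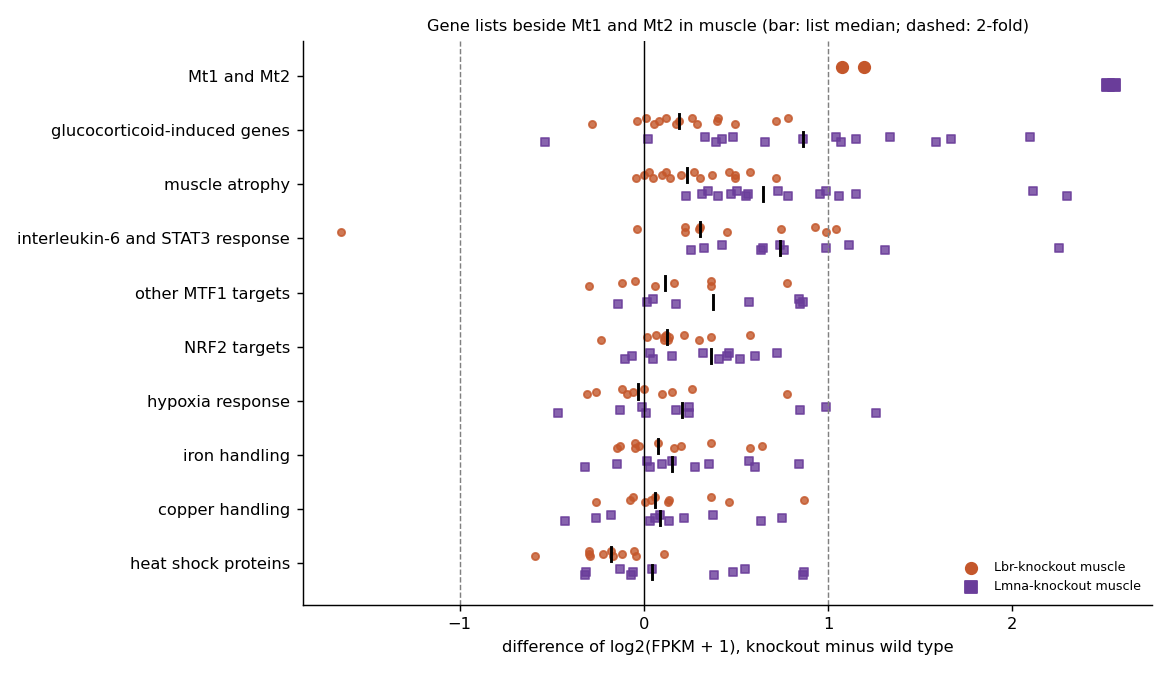
Difference of log2(FPKM + 1), knockout minus wild-type muscle (horizontal axis), for the compared genes of each list, with Mt1 and Mt2 in the top line, list medians as bars and dashed lines at 2-fold. In Lmna-knockout muscle 7 glucocorticoid-induced, 4 atrophy and 3 interleukin-6 response genes lie past 2-fold, but none lies beyond the metallothioneins at 2.52 and 2.55.

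Summed markers of neutrophils, lymphoid cells and macrophages were higher in both knockout muscles than in wild-type muscle. Among these 3 sums, that of neutrophils was highest without Lmna, as were Mt1 and Mt2, and the others were highest without Lbr. The 12 neutrophil markers summed to 169.5 FPKM in Lbr-knockout and 229 FPKM in Lmna-knockout muscle, against 70.8 FPKM in wild-type muscle. Of 10 that could be compared, 3 were at least 2-fold higher and Mmp9 lower without Lbr, and 4 were higher without Lmna. Without Lbr 7 were above and 3 below wild type (median 0.25), and all 10 were above it without Lmna (median 0.91). S100a8 (1.62 and 1.80) and S100a9 (1.52 and 1.83) made up most of each sum. In Lbr-knockout muscle they had 90.7 and 56.8 FPKM, against 28.8 and 19.2 FPKM in wild-type muscle. The 14 lymphoid markers summed to 77.1 FPKM in Lbr-knockout and 52.9 FPKM in Lmna-knockout muscle, against 18.0 FPKM in wild-type muscle, and 9 were at least 2-fold higher without Lbr and 7 without Lmna. The 15 macrophage markers summed to 223 FPKM in Lbr-knockout and 206 FPKM in Lmna-knockout muscle, against 160.3 FPKM in wild-type muscle. Of 14 that could be compared, 1 was at least 2-fold higher without Lbr and 0 without Lmna. No marker of these 3 lists was at 0 in a muscle column. The part of these cells in the levels of Mt1 and Mt2 was not tested.

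The 10 hepatocyte-secreted markers summed to 19.3 FPKM in Lbr-knockout and 3.12 FPKM in Lmna-knockout muscle, against 4.62 FPKM in wild-type muscle, and 3 were at 0 in Lmna-knockout muscle. The list was not uniform: Alb had 4.53 FPKM in Lbr-knockout and 0.281 FPKM in Lmna-knockout muscle, against 1.54 FPKM in wild-type muscle, whereas Serpina1a had 1.07 FPKM in Lmna-knockout muscle, against 0.673 FPKM in wild-type muscle. The 12 adipocyte markers summed to 1133 FPKM in Lbr-knockout and 1015 FPKM in Lmna-knockout muscle, against 799.6 FPKM in wild-type muscle. Of these 12, 11 were above wild type without Lbr (median 0.40), and without Lmna 5 were above and 7 below (median -0.09), with Scd1 (-2.51) and Lep (-1.21) past 2-fold lower. The 11 Schwann cell markers summed to 1005 FPKM in Lbr-knockout and 624 FPKM in Lmna-knockout muscle, against 479.7 FPKM in wild-type muscle. Their part in the result was not tested. None of the endothelial and fibroblast markers compared reached 2-fold in either muscle. Erythroid markers summed to 894 FPKM in Lbr-knockout and 522 FPKM in Lmna-knockout muscle, against 704 FPKM in wild-type muscle. The 12 muscle fibre markers summed to 71555 FPKM in Lbr-knockout and 58176 FPKM in Lmna-knockout muscle, against 76758 FPKM in wild-type muscle.

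In myoblasts none of the 5 genes was at least 2-fold higher or lower in either knockout. Against the wild type of the own litter, 2.60% of 11463 genes in Lbr-knockout and 1.20% of 11462 genes in Lmna-knockout myoblasts were past 2-fold in either direction. Lbr-knockout myoblasts differed by 0.19 for Mt1, -0.01 for Mt2, 0.18 for Mtf1, 0.12 for Slc30a1 and -0.05 for Slc39a14. Lmna-knockout myoblasts differed by 0.22 for Mt1, 0.37 for Mt2, 0.10 for Mtf1, -0.06 for Slc30a1 and -0.20 for Slc39a14. The wild types of the Lbr and Lmna litters themselves differed by -0.31 for Mt1 and 0.03 for Mt2, Lbr litter minus Lmna litter. The Mt1 differences in the knockouts are smaller than that between the wild types, and the Mt2 difference in Lmna-knockout myoblasts is larger. Set against wild-type myoblasts of the Lmna litter, Lbr-knockout myoblasts differed by -0.11 for Mt1 and 0.02 for Mt2, the opposite signs. Macrophage markers summed to 1432 FPKM in Lbr-knockout and 1398 FPKM in Lmna-knockout myoblasts, against 459 and 1699 FPKM in the wild types of the Lbr and Lmna litters. Of the muscle fibre markers compared, 6 of 7 were at least 2-fold higher without Lbr and 4 of 6 at least 2-fold lower without Lmna. Of 7 myoblast markers compared, 3 were at least 2-fold higher without Lbr and 3 at least 2-fold lower without Lmna. The part of these cells in the values of the 5 genes was not tested.

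The choice of genes did not use the myoblast columns, so these were tested. A limma fit took both wild types as 1 group, with 1 residual degree of freedom and 25.8 from the prior, and assumed that the knockout columns vary like the wild types. It called 0.323% of 11447 genes in Lbr-knockout and 0.411% in Lmna-knockout myoblasts, and 0 of the 5 genes in either. In Lbr-knockout myoblasts the estimate was 0.04 for Mt1 (95% interval -0.64 to 0.72) and 0.00258 for Mt2 (-0.67 to 0.67). In Lmna-knockout myoblasts it was 0.37 for Mt1 (-0.31 to 1.05) and 0.36 for Mt2 (-0.31 to 1.03). These intervals cover 0 in each case, and those of Lmna-knockout myoblasts also include a 2-fold increase. The Benjamini-Hochberg adjusted p from limma was 0.999991 for each of the 5 genes in Lbr-knockout and 0.999684 in Lmna-knockout myoblasts. With both knockouts in 1 group, limma called 0% of 11447 genes (131 at an unadjusted p under 0.05). With litter as a replicate block, which pairs each knockout with the wild type of its litter, it called 1 gene, none of the 5. In that fit 796 of 11447 genes had an unadjusted limma p under 0.05. The estimate was 0.21 for Mt1 (95% interval 0.00660 to 0.41, limma adjusted p = 0.712) and 0.18 for Mt2 (-0.16 to 0.52, limma adjusted p = 0.799). The difference between muscle and myoblasts in the response to either knockout was not tested, since muscle has 1 column per genotype.

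Slc39a14, Mtf1 and Slc30a1 were lower in muscle than in myoblasts. The limma fit over all 7 columns, with genotype as a covariate, called 78.9% of 12001 genes, 26.6% higher and 52.3% lower in muscle, so a call by itself sets no gene apart. With columns shifted to a common median, 4645 genes were higher and 4372 lower in muscle, against 3196 and 6276 as deposited. Mtf1 was lower in muscle by a log2 difference of -0.95 ± 0.13 and Slc30a1 by -1.01 ± 0.13 (SE, limma adjusted p = 0.000239 and 0.000167). At the common median these differences were -0.42 and -0.49, both past the threshold (limma adjusted p = 0.0180 and 0.0106). Slc39a14 had the largest difference of these 3 genes, -2.80 ± 0.14 (limma adjusted p = 9.03e-07), with 2.14 to 2.82 FPKM in muscle and 21.0 to 24.9 FPKM in myoblasts. Mtf1 ranged from 2.52 to 2.68 FPKM in muscle and from 5.25 to 6.27 FPKM in myoblasts, and Slc30a1 from 1.72 to 2.71 FPKM in muscle and from 4.78 to 6.32 FPKM in myoblasts. For these 3 genes the muscle columns do not overlap the myoblast columns. The share of all genes without overlap was not measured, so this sets no gene apart either. Mt1 and Mt2 were chosen for their levels in the muscle of the knockouts, which enter this fit, so their tissue difference carries no test. In wild types alone Mt1 had 38.8 FPKM in muscle, against 19.6 and 24.5 FPKM in myoblasts of the Lbr and Lmna litters. Mt2 had 13.4 FPKM in wild-type muscle, against 21.1 and 20.6 FPKM in those myoblasts. The tissues were prepared with different library kits, so kit and tissue cannot be told apart.

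The order of the 7 columns differs among the genes. Wild-type muscle was the lowest column for Mt2 and Slc39a14, while Mt1 was lowest in the wild-type myoblasts of the Lbr litter, at 19.6 FPKM. Mtf1 was highest in Lmna-knockout myoblasts, Slc30a1 in Lbr-knockout myoblasts and Slc39a14 in the wild-type myoblasts of the Lbr litter. Within each tissue the Mtf1 columns were within a ratio of 1.19 of each other, and those of Slc39a14 within 1.32. With 1 column per group it cannot be said whether neighbours in these orders differ beyond the spread between animals.

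Genes with a profile like those of Mt1 and Mt2 over the 7 columns were sought among 8558 genes that vary by at least 2-fold, as a description over columns that share tissue and kit. The closest to Mt1 by Pearson correlation were Mylip (r = 0.996, n = 7), Acvr2b (0.994), Pard6a (0.993) and Bmp6 (0.992), followed by Rere, Hdac5, Arid5a, Rilpl1, Ttc38 and Pank4, down to 0.987. The closest to Mt2 were Cnnm3 (0.957), Ctsw (0.915), Zfp949 (0.896) and Pnrc1 (0.890), followed by Acot1, Fas, Tmc4, Mylip, Acvr2b and Mt1 (0.843). Mylip and Acvr2b are on both lists. Mt1 is among the 10 genes closest to Mt2, but Mt2 ranks 808 among those closest to Mt1.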

How the data were processed

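Expression was measured by RNA-seq of total RNA, extracted with TRIZOL and cleaned with RNeasy, per the labels' protocols. Myoblast libraries used NuGEN Ovation RNA-Seq and muscle libraries the NuGEN complete RNA-Seq protocol, per the labels' protocols. The deposited values are FPKM, calculated by the authors on genome build mm9, per the submitters' processing notes for the build. Neither labels nor notes name the aligner, the quantification or how 2 samples became 1 column.

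The members and lists were chosen with earlier results of these data known. Differences were taken on log2(FPKM + 1). The pseudocount was 1, and genes entered that averaged 1 FPKM or more in the tissue and were above 0 in the compared columns. All 5 genes passed in both tissues. limma 3.58.1 (R 4.3.3, trend, Benjamini-Hochberg over all genes, threshold 0.05) was used where columns gave a spread, and the scripts were tested on simulated data. Its p-values measure the spread between columns of different litters or genotypes. The depth was estimated from the FPKM steps of 3286 genes with a single transcript. A value of 1 FPKM on 2 kb equals 6.28 fragments in the knockout muscle columns and 8.28 in wild-type muscle.

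Genes named were the 5 members, the zinc transporter, metallothionein and neighbouring genes, up to 4 genes of each other list with the largest difference in either muscle comparison, and the 10 closest profiles. A neighbouring gene is not reported here. Genes of a count of 5 or fewer were named after their values were seen. Promoters were matched by symbol for Mt1, Mt2, Mt3, Mt4, Mtf1 and Slc30a1. Alternatives were other pseudocounts, filters, scalings, controls and variance priors, and omission of single columns. A scaling to equal sums without the 10 most abundant genes, and a fit of both knockouts together with litter as a block, were chosen after seeing the data.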

Additional observations from a re-analysis of the deposited data

Results flagged for a closer look

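Some genes had differences of opposite sign in muscle and in myoblasts under the same knockout, each of which rests on 1 column per group. Mt2 differed by 1.19 in Lbr-knockout muscle and by -0.01 in Lbr-knockout myoblasts, muscle minus myoblast 1.21. Set against the Lmna litter's wild type or both wild types, that myoblast value was 0.02 or 0.00258, and the opposite sign was lost. Mtf1 differed by -0.02 and 0.18 in the same tissues (-0.20). Slc39a14 differed by 0.28 in muscle and -0.05 in myoblasts without Lbr (0.33), and by 0.23 and -0.20 without Lmna (0.43). The difference between the tissues was not tested for any of these. All values but that of Mt2 in muscle are below 2-fold.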

How the results depend on the processing

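Of 277 values of the 5 genes under the alternatives, 3 crossed the threshold and 7 changed sign, none of which passed a threshold with either sign. Those that crossed it were Mt1 in Lbr-knockout muscle with columns shifted to a common median (0.96, leaving 1 of the 5 genes past 2-fold), and the tissue estimate of Mt2 with that shift (0.94) and without the wild-type muscle column (1.09). That estimate, 0.41 over all columns, turned to -0.10 without either Lmna-knockout column and is not read as a test, since Mt2 was chosen on these columns. The other sign changes were Mtf1 in Lmna-knockout muscle (0.05, and -0.09 with the common median), Mt1 in Lbr-knockout myoblasts (0.19, and -0.11 set against the Lmna litter's wild type) and Mt2 in Lbr-knockout myoblasts (-0.01, against 0.02 with that same control and 0.00258 with both, where the common median gave -0.0346). With a mean of at least 5 FPKM, 2 of the 5 genes were called in the tissue fit, because Mtf1 and Slc30a1 no longer enter it. Over all settings Mt1 ranged from 0.96 to 1.09 in Lbr-knockout and from 2.38 to 2.55 in Lmna-knockout muscle. Mt2 ranged from 1.00 to 1.25 in Lbr-knockout and from 2.26 to 2.63 in Lmna-knockout muscle.

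Counts over all genes moved more, and the cause was not tested. With a pseudocount of 0.1, a pseudocount of 5 and a mean of at least 5 FPKM, the genes past 2-fold numbered 457, 48 and 67 in Lbr-knockout muscle (189 as reported), 725, 98 and 187 in Lmna-knockout muscle (325), 486, 86 and 132 in Lbr-knockout myoblasts (298) and 223, 32 and 60 in Lmna-knockout myoblasts (138). Against the mean of both wild types Lbr-knockout myoblasts had 152, and against the other litter's wild type Lmna-knockout myoblasts had 518. The limma fit called 37 genes in Lbr-knockout myoblasts, against 14 with a pseudocount of 0.1, 71 with 5, 4 with a common median, 0 without a filter and 3 with equal sums. In Lmna-knockout myoblasts it called 47, against 19 with a common median, 0 without a filter and 10 with equal sums. At an unadjusted p under 0.05 the reported fits had 341 and 404 genes. With both knockouts in 1 group, chosen after seeing the data, limma called 0 genes (131 at an unadjusted p under 0.05). It called 1 gene with litter as a replicate block (796 at an unadjusted p under 0.05), which left the estimates of Mt1 (0.21) and Mt2 (0.18) as they were. Replicate numbers could not be used as a block, because the replicates of a group share a column. Depth limits the muscle values of Mt2, Slc30a1 and Slc39a14 most.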
